A study of Mus musculus with 8 samples.

Results

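The genes described here are 48 mouse genes that encode the machinery of DNA replication and of mitosis. They were followed in bone-marrow-derived macrophages (BMDMs) labelled wild type (WT) or Dnmt3a knockout (KO). They were taken by gene symbol from a list of 24 replication genes, Mcm2 to Rrm2, and 24 mitosis genes, Cdk1 to Anln. All 48 were among the 26667 rows of the count table and among the 12507 genes with enough counts to be tested. RNA was sequenced from 4 Dnmt3a KO libraries and 4 WT libraries. Both genotypes were of strain C57BL/6, and in both, whole marrow cells were cultured with 30 ng/ml M-CSF, the macrophage growth factor, and 10% serum, and were taken at day 8 to 10. Dnmt3a encodes a de novo DNA methyltransferase. The labels give neither how the Dnmt3a allele was made nor the animals' age or sex, and they do not say whether the libraries came from separate mice, so every p-value below measures only the spread between these libraries, which may be technical.

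Before S phase, the Mcm2 to Mcm7 helicase ring is loaded onto replication origins by the origin recognition complex with Cdc6 and Cdt1, and it is later fired by Cdc45 and the GINS complex. DNA polymerases then copy the strands on the sliding clamp Pcna, while ribonucleotide reductase, thymidylate synthase and thymidine kinase supply the nucleotides. In mitosis, Cdk1 with its cyclins drives entry, the Aurora and Polo kinases and the kinesins build the spindle, and the spindle checkpoint holds the anaphase-promoting complex and its activator Cdc20 until the chromosomes are attached. Transcripts of these genes are low in resting cells and rise when cells cycle, the replication genes largely under E2F factors and the mitosis genes under the B-Myb and Foxm1 complexes that act at CHR elements. Macrophage precursors divide in M-CSF culture and slow down as they mature. In bulk RNA, fewer cycling cells and less RNA per cycling cell cannot be told apart.

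No replication or mitosis gene passed the test at an adjusted p under 0.05 (edgeR quasi-likelihood test, Benjamini-Hochberg adjustment over 12507 genes), and DESeq2 and limma-voom also called 0 of the 48. Over the same comparison 201 genes, 1.61%, were called in either direction, 0.392% lower in Dnmt3a KO and 1.22% higher. The fitted log2 fold change, Dnmt3a KO over WT, was nevertheless below 0 for 46 of the 48 genes, 23 of 24 in each set, where 53.1% of all tested genes were below 0. The median difference was -0.17 on the log2 scale in the replication genes and -0.17 in the mitosis genes, a difference of -11.03% in both, and the median over all tested genes was -0.018. Without Dnmt3a KO library 4 the replication median was -0.11. An unadjusted p under 0.05 was reached by 6 members, all lower in Dnmt3a KO (Tk1, Pcna, Mcm4, Mcm5, Bub1b and Aurka), where 5.84% of all tested genes were lower at that level. In 5 members every Dnmt3a KO library lay below every WT library, which was the case for 4.28% of all tested genes. These members vary together in each library, so the 48 signs are not 48 separate observations.

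Between these libraries, the size of the differences was bounded for the members, as it was for most tested genes. The 95% interval of the fold change excluded a 2-fold difference in either direction for all 48 members. It excluded a 1.5-fold difference for 39, of which 17 were replication genes and 22 were mitosis genes. Of all 12507 tested genes, the interval excluded a 2-fold difference for 10409 and a 1.5-fold difference for 7297. The lowest bound was -0.91 on the log2 scale, for Gins2, and the highest was 0.59, for Nusap1. The least-counted member in any library was Gins1, with 111 reads.

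**Figure D1:**
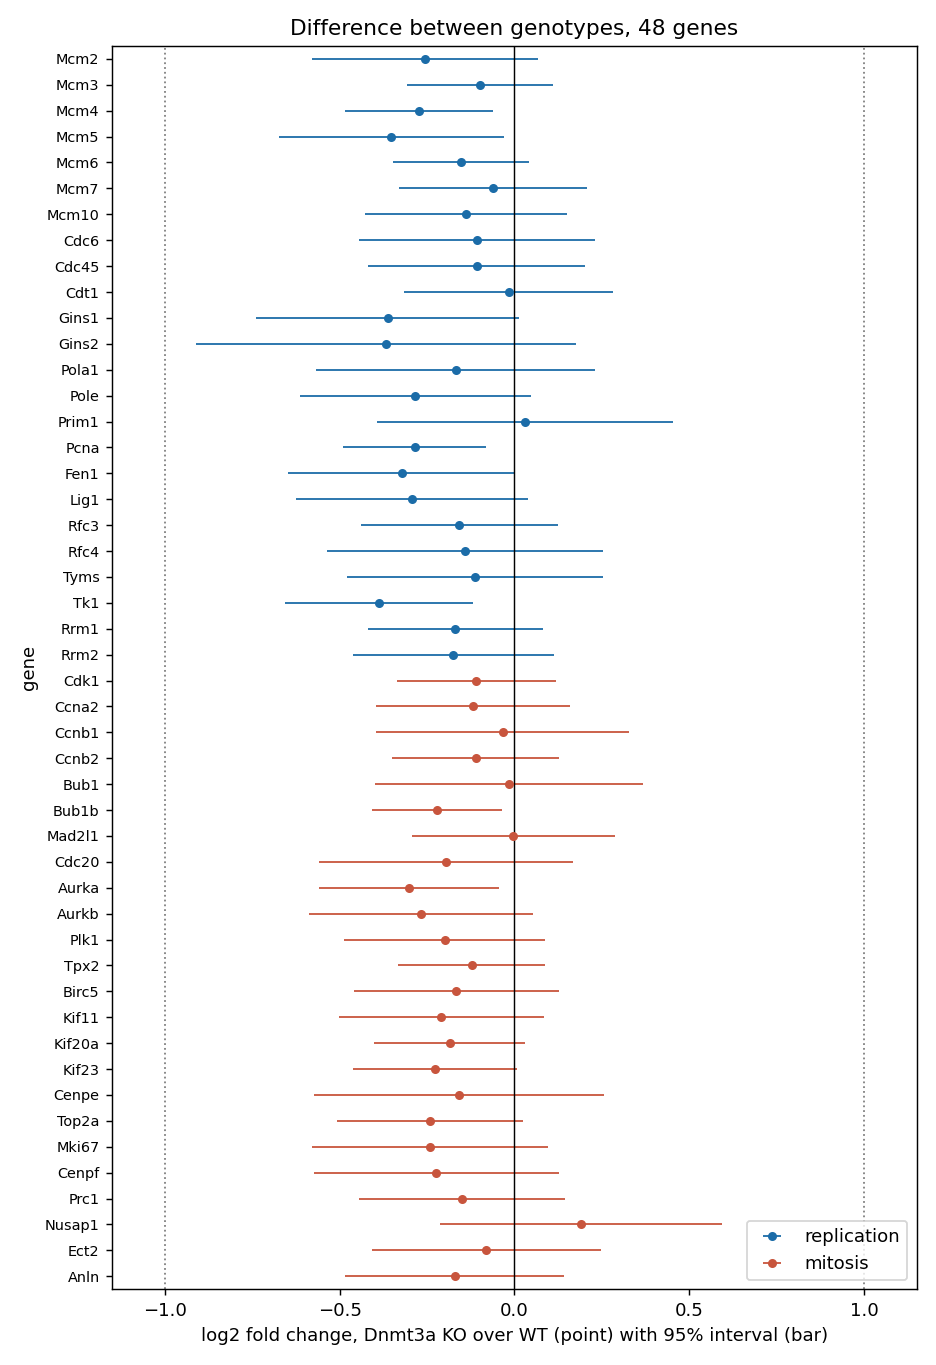
Fitted log2 fold change, Dnmt3a KO over WT, of each of the 48 genes (point) with its 95% interval (bar), replication genes above and mitosis genes below, with dotted lines at a 2-fold difference. All but Prim1 and Nusap1 lie left of 0, no bar reaches a dotted line, and 6 bars lie wholly below 0.

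The promoters of the 2 sets differ in the elements they hold, and 6 are shown as examples, of which all but Pcna carry an E2F or CHR element. RefSeq windows of 300 bases (GRCm38.p6, 250 before the transcription start and 50 after) matched 40 members by symbol, 20 in each set. Each was searched on both strands for the E2F elements TTTCCCGC and TTTGGCGC, the CHR elements TTTGAA and TTCGAA, and CCAAT, none of which contains another. An E2F element was found in 8 of 20 replication promoters (40%), 0 of 20 mitosis promoters and 1.63% of 27025 promoters of all genes. A CHR element was found in 5 replication promoters (25%), 15 mitosis promoters (75%) and 19.4% of all. CCAAT was found in 13 replication promoters (65%), 16 mitosis promoters (80%) and 37.9% of all. The 150 bases before the start are given 5′ to 3′ on the gene's strand, with the matches in capitals; GCGGGAAA is TTTCCCGC and ATTGG is CCAAT read on the other strand.
Mcm6 (chr1:128359706-128359855, minus strand): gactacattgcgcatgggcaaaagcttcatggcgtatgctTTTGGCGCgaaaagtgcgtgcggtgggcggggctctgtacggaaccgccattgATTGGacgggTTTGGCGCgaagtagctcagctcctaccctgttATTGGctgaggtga
Cdc6 (chr11:98908001-98908150, plus strand): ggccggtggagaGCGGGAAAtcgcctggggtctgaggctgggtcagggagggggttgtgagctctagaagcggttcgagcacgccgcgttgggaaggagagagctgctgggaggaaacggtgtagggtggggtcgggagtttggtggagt
Pcna (chr2:132253181-132253330, minus strand): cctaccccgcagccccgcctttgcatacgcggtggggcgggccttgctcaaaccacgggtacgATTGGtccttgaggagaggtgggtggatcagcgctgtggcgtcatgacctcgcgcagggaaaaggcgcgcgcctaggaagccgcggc
Cdk1 (chr10:69352913-69353062, minus strand): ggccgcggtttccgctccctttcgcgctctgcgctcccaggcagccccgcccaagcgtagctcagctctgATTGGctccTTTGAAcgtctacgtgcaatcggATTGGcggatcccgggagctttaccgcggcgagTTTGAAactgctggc
Mki67 (chr7:135716380-135716529, minus strand): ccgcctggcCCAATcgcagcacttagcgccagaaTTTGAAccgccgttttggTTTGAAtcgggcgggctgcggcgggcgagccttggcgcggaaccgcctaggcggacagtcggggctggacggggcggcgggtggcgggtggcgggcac
Cdc20 (chr4:118437344-118437493, minus strand): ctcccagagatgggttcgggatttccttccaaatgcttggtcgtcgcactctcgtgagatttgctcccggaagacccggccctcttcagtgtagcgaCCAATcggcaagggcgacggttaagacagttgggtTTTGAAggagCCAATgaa
Mcm6 held an E2F element at 2 places and Cdc6 at 1, without a CHR element in these bases. Cdk1 and Mki67 each held 2 CHR elements with CCAAT nearby, Cdc20 held 1 with 2 CCAAT boxes, and Pcna held only CCAAT. A match is a description of the letters and says nothing of which factor was bound in these cells.

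Among the 6 subunits of the MCM helicase ring, all had a negative log2 difference, with a median of -0.20. Mcm4 had 51.0, 55.5, 52.7 and 52.9 CPM (counts scaled to library size and between libraries by TMM) in Dnmt3a KO libraries 1 to 4, against 59.9, 60.5, 64.1 and 71.5 CPM in WT libraries 1 to 4. Every Dnmt3a KO library lay below every WT library, and the log2 fold change was -0.27 ± 0.10 (SE, n = 4 each, edgeR adjusted p = 0.239). Mcm5 had 113, 92.2, 100.3 and 95.1 CPM in Dnmt3a KO libraries, against 171, 111, 110.5 and 118 CPM in WT libraries. WT library 1 stood far above the other 3 WT libraries, Dnmt3a KO library 1 lay above WT libraries 2 and 3, and the log2 difference was -0.35 ± 0.15 (edgeR adjusted p = 0.342). The remaining subunits differed by -0.26 (Mcm2), -0.15 (Mcm6), -0.10 (Mcm3) and -0.061 (Mcm7).

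The factors of origin licensing and firing had negative differences in 6 of 6 genes, with a median of -0.12. Gins2, a subunit of the GINS complex that joins the helicase, had 23.1, 18.1, 18.0 and 14.75 CPM in Dnmt3a KO libraries, against 38.5, 21.5, 17.0 and 18.4 CPM in WT libraries. WT library 1 stood above the other 7 libraries, and the difference of -0.37 ± 0.25 was the least precise of the 48 (edgeR adjusted p = 0.589). Exons of Gse1 cover 67.3% of Gins2, so its reads may be shared. Gins1, of the same complex, had 8.35, 10.4, 9.93 and 8.655 CPM in Dnmt3a KO libraries, against 15.8, 11.5, 10.8 and 10.0 CPM in WT libraries, with Dnmt3a KO library 2 above WT library 4 (log2 difference -0.36 ± 0.17, edgeR adjusted p = 0.417). The loading factors Cdc6 and Cdt1 differed by -0.11 and -0.017. Mcm10, which stays with the active helicase, differed by -0.14, and the helicase partner Cdc45 by -0.11. The 95% interval spanned 0 for all 6 genes of this role, Gins1 and Gins2 included.

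At the fork itself, the clamp, its loader and the enzymes of Okazaki fragment joining had the most negative median of the replication roles, -0.29, with 5 of 5 genes below 0. Pcna, the sliding clamp (mm10 chr2:132249162-132253314), had 151, 146, 144 and 140.2 CPM in Dnmt3a KO libraries, against 198, 166, 164 and 181 CPM in WT libraries. The groups did not overlap, and the highest Dnmt3a KO library lay well below the lowest WT library (log2 difference -0.29 ± 0.09, edgeR adjusted p = 0.198). The flap nuclease Fen1 differed by -0.32 and the DNA ligase Lig1 by -0.29, both with adjusted p over 0.05. Exons of Tmem258 and Gm10143 cover 84.2% of Fen1. The clamp loader subunits Rfc3 and Rfc4 differed by -0.16 and -0.14.

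Of the polymerases, Pole, the catalytic subunit of the leading-strand polymerase, averaged 21.8 ± 3.29 CPM in Dnmt3a KO and 26.5 ± 3.77 CPM in WT libraries (SD, n = 4 each), with a log2 difference of -0.28. Pola1, of the polymerase alpha and primase complex, differed by -0.17. Prim1, the primase subunit, was the only replication gene with a positive difference, 0.030 ± 0.19. It had 18.6, 19.5, 14.7 and 14.2 CPM in Dnmt3a KO libraries, against 10.6, 18.1, 17.7 and 19.15 CPM in WT libraries, with WT library 1 below the other 7.

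The enzymes of nucleotide supply had negative differences in 4 of 4 genes, with a median of -0.17. Tk1, the S-phase thymidine kinase (mm10 chr11:117815526-117826092), had the lowest p of all 48 members. It had 24.8, 24, 22.1 and 19.8 CPM in Dnmt3a KO libraries, against 33.8, 28.5, 27.5 and 28.8 CPM in WT libraries. The genotypes were apart, and its log2 difference of -0.39 ± 0.12 was also the most negative (edgeR adjusted p = 0.179). The ribonucleotide reductase subunits Rrm1 and Rrm2 differed by -0.17 and -0.18, and Tyms, thymidylate synthase, by -0.11.

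In mitosis, Cdk1 and the cyclins that drive entry differed least by median together with the spindle checkpoint genes, at -0.11 for each role. Cdk1 averaged 73.5 ± 8.49 CPM in Dnmt3a KO and 79.3 ± 3.62 CPM in WT libraries (log2 difference -0.11), and Ccna2, Ccnb2 and Ccnb1 differed by -0.12, -0.11 and -0.033. The checkpoint kinase Bub1b (BubR1) was the most even member between WT libraries, together with Mcm6. It had 61.3, 62.1, 64.8 and 65.2 CPM in Dnmt3a KO libraries, against 73.2, 71.1, 75.85 and 75.5 CPM in WT libraries. The groups did not overlap, and the log2 difference was -0.22 ± 0.08, the lowest p of the mitosis genes (edgeR adjusted p = 0.288). The kinase Bub1 (-0.015) and Mad2l1 (-0.0031) of the same checkpoint lay close to 0, and Cdc20, the activator that the checkpoint restrains, differed by -0.20.

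The Aurora and Polo kinases and their partners were below 0 in 5 of 5 genes, with a median of -0.20. Aurka, the spindle-pole Aurora kinase (mm10 chr2:172356190-172370535), had 45.4, 44.4, 52.8 and 53.4 CPM in Dnmt3a KO libraries, against 70.1, 54.1, 55.5 and 62.0 CPM in WT libraries. The groups did not overlap, though the highest Dnmt3a KO library lay just under the lowest WT library (log2 difference -0.30 ± 0.12, edgeR adjusted p = 0.294). Aurkb, the Aurora kinase of the chromosomal passenger complex, had 42.0, 33.2, 36.8 and 36.3 CPM in Dnmt3a KO libraries, against 57.9, 37.2, 41.1 and 42.2 CPM in WT libraries. These groups overlapped through Dnmt3a KO library 1 (log2 difference -0.27 ± 0.15, edgeR adjusted p = 0.501). Plk1, the Polo kinase, differed by -0.20, the passenger complex subunit Birc5 (survivin) by -0.17 and Tpx2, which activates Aurka on the spindle, by -0.12.

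Chromosome structure genes had the most negative median of the mitosis roles, -0.24. Mki67, which coats mitotic chromosomes and gives the Ki-67 proliferation marker, had 289, 328, 302 and 253 CPM in Dnmt3a KO libraries, against 248, 330.2, 421 and 387.5 CPM in WT libraries. WT library 1 was the lowest of all 8 while WT libraries 3 and 4 were the highest, and the log2 difference was -0.24 ± 0.15 (edgeR adjusted p = 0.566). Top2a, the topoisomerase that untangles chromosomes, had 238, 268.5, 257 and 239 CPM in Dnmt3a KO libraries, against 233, 287, 329 and 336 CPM in WT libraries. Here too WT library 1 was the lowest of all 8 and the other WT libraries lay above every Dnmt3a KO library (log2 difference -0.24 ± 0.12, edgeR adjusted p = 0.455). The kinetochore protein Cenpf differed by -0.22.

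The mitotic kinesins were below 0 in 4 of 4 genes, by -0.23 (Kif23), -0.21 (Kif11, the bipolar spindle motor), -0.19 (Kif20a) and -0.16 (Cenpe, the kinetochore motor). Exons of Cdc23 cover 29.3% of Kif20a. Of the midzone and cytokinesis genes, Anln, Prc1 and Ect2 differed by -0.17, -0.15 and -0.081. Nusap1, a microtubule bundler of the spindle, was the only mitosis gene with a positive difference, 0.19 ± 0.18, and had 55.0, 62.85, 53.3 and 54.55 CPM in Dnmt3a KO libraries, against 31.85, 44.4, 63.9 and 57.3 CPM in WT libraries. WT libraries 1 and 2 were the lowest of the 8 and WT library 3 the highest. Per kilobase of longest transcript, the highest levels were those of Pcna (95.8 CPM per kb in Dnmt3a KO, 117 in WT) and Top2a (48 in Dnmt3a KO, 56.75 in WT), and the lowest was that of Cdc6 (2.38 in Dnmt3a KO, 2.555 in WT).

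**Figure D2:**
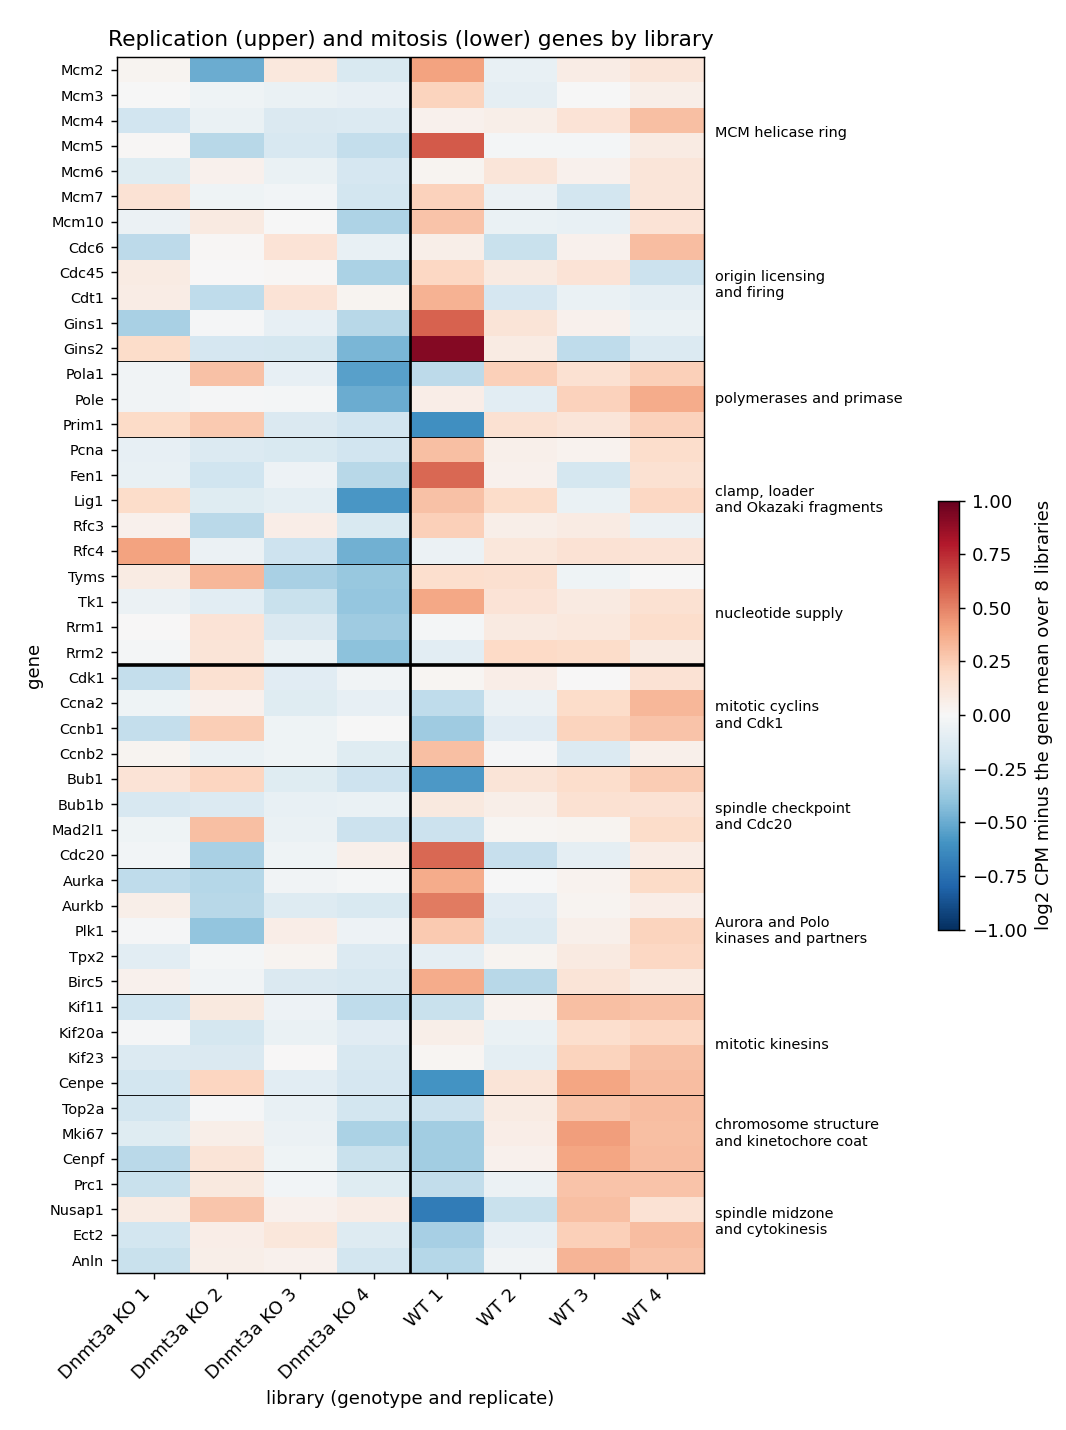
Level of each of the 48 genes in each library as log2 CPM minus the gene's mean over the 8 libraries (colour), Dnmt3a KO libraries on the left and WT libraries on the right, genes grouped by role. WT library 1 is highest of all 8 for 14 replication genes and lowest for 12 mitosis genes, while Dnmt3a KO library 4 is lowest for 14 replication genes.

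The 2 sets stood at different levels in some libraries. As the mean deviation of 24 genes from their own means (log2 CPM), the replication genes stood at 0.0067, -0.040, -0.074 and -0.28 in Dnmt3a KO libraries, against 0.21, 0.045, 0.031 and 0.11 in WT libraries. All 4 Dnmt3a KO libraries lay below all 4 WT libraries, and Dnmt3a KO library 4 was far below the rest. The mitosis genes stood at -0.10, 0.0039, -0.045 and -0.12 in Dnmt3a KO libraries, against -0.090, -0.035, 0.175 and 0.22 in WT libraries. There the genotypes overlapped, because WT libraries 1 and 2 lay at the level of the Dnmt3a KO libraries. Summed over the set, replication genes made up 1142 ± 76.6 CPM in Dnmt3a KO and 1322 ± 94.7 CPM in WT libraries, and mitosis genes 1895 ± 102 CPM in Dnmt3a KO and 2138 ± 259 CPM in WT libraries (SD, n = 4 each). For the mitosis genes the WT spread was the larger one: 21 of 24 had a wider range over WT libraries than over Dnmt3a KO libraries, against 12 of 24 replication genes.

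**Figure D3:**
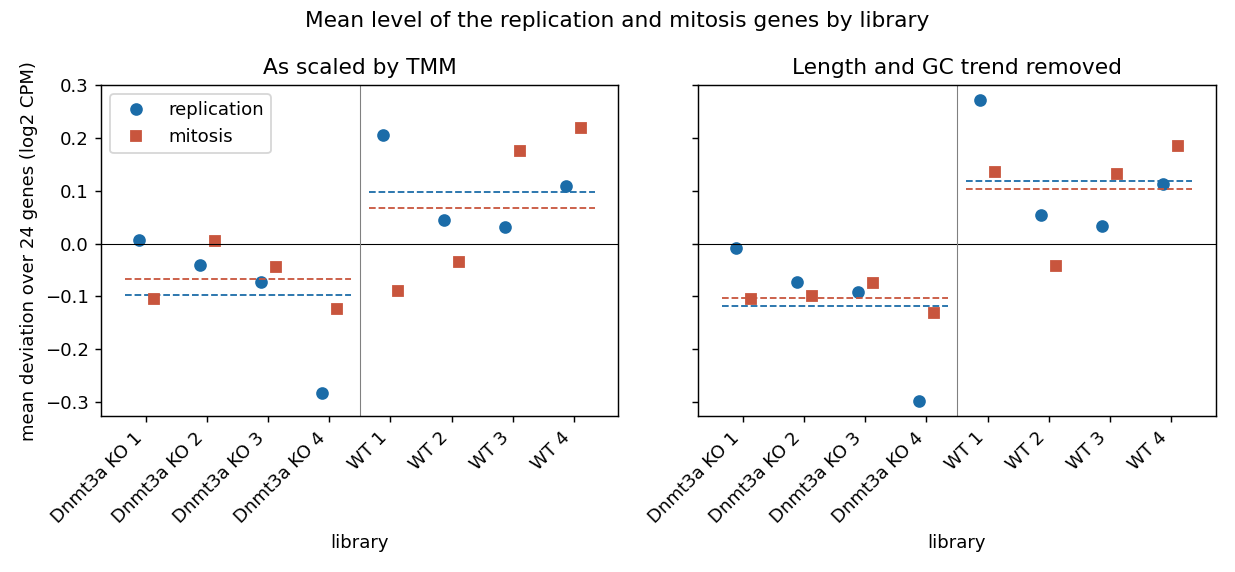
Mean deviation of the 24 replication genes (circles) and the 24 mitosis genes (squares) from their means over 8 libraries, in log2 CPM, by library, with the group mean dashed, as scaled (left panel) and with the trend on transcript length and GC content removed (right panel). In the left panel the genotypes overlap for the mitosis genes, and in the right panel they are apart for both sets.

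WT library 1 stood high for many replication genes and low for many mitosis genes, and the levels of the members in it varied with the base composition of their transcripts. Set against the mean of WT libraries 2 to 4, WT library 1 had a median log2 difference of 0.21 over replication genes, -0.35 over mitosis genes and 0.00099 over all tested genes with a known length. Across the 48 members this difference had a Pearson correlation of 0.78 with the GC content of the longest transcript (0.68 in the replication genes, 0.83 in the mitosis genes), and of 0.58 across 12200 genes. With log2 transcript length it was -0.51 across the members and -0.30 across all. These are correlations across genes of a single library, which share its preparation and are not independent replicates, and no p is given. The median GC content was 48.9% in replication, 46.2% in mitosis and 49.6% in all such genes. The part of base composition in the levels of WT library 1 was not tested. In Dnmt3a KO library 4, 23 of 24 replication genes lay below the mean of Dnmt3a KO libraries 1 to 3, with a median of -0.23. Of the mitosis genes, 18 of 24 lay below, with a median of -0.081. Over all tested genes with a known length, 5927 of 12200 lay below, with a median of 0.0066. This difference correlated with GC content at 0.28 in the replication genes, 0.74 in the mitosis genes and 0.19 across all 12200. With log2 transcript length the correlations were -0.15, -0.67 and -0.13, again without a p.

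**Figure D4:**
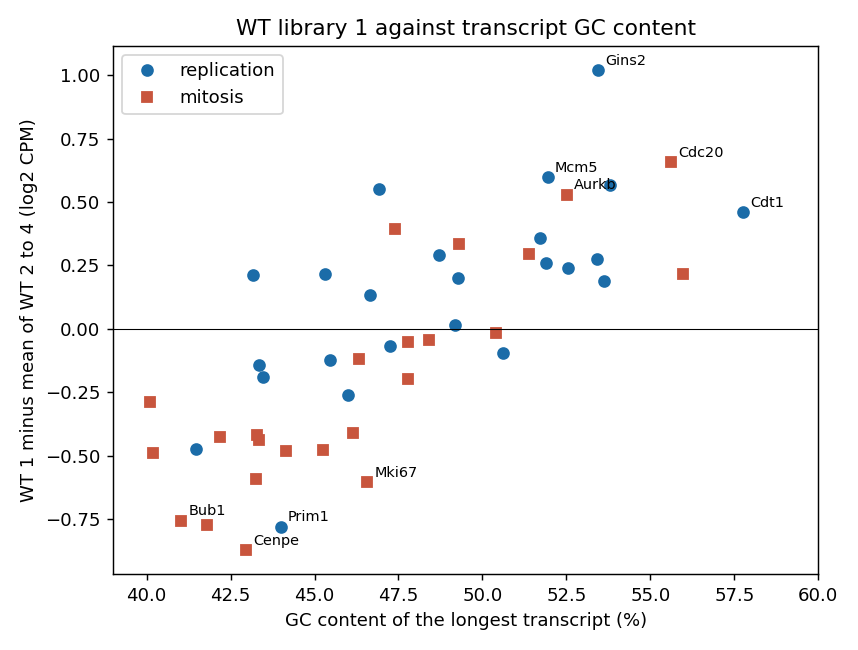
WT library 1 minus the mean of WT libraries 2 to 4, in log2 CPM, against the GC content of the longest transcript, in percent, for 24 replication genes (circles) and 24 mitosis genes (squares). Members with more GC lie higher, with Gins2 and Cdc20 at the top and Cenpe and Prim1 at the bottom.

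When a smooth trend on transcript length and GC content was removed from every library, the differences of both sets became larger relative to their error. Of the 48 members, 4 then fell in Dnmt3a KO at an adjusted p under 0.05, where 1.18% of all tested genes did: Top2a by 0.36 (adjusted p = 0.0109), Pcna by 0.38 (adjusted p = 0.0168), Mcm4 by 0.38 (adjusted p = 0.0195) and Kif11 by 0.33 on the log2 scale (adjusted p = 0.0307, all edgeR). A negative difference was found for 46 of 48 members, where 59% of all tested genes were negative. An unadjusted p under 0.05 was reached by 25 members, all lower, 10 replication and 15 mitosis genes, where 9.43% of all tested genes were. The median difference became -0.26 for replication genes (-16.5%) and -0.23 for mitosis genes (-14.8%), and the median standard error of the members fell to 0.098 from 0.135. The mean deviation of the replication genes was then -0.0089, -0.072, -0.092 and -0.30 in Dnmt3a KO libraries, against 0.27, 0.054, 0.033 and 0.11 in WT libraries, with WT library 1 still the highest. That of the mitosis genes was -0.10, -0.099, -0.075 and -0.13 in Dnmt3a KO libraries, against 0.14, -0.042, 0.13 and 0.18 in WT libraries, with no overlap. With WT library 1 left out and no trend removed, 1 member was called, Top2a (fell by 0.34, edgeR adjusted p = 0.0382), where 1.13% of 12672 genes were called lower. Which of these fits is closest to the RNA in the cells was not tested.

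Other genes of the same processes were listed beside the members. Of 45 further replication genes, 0 were called, 33 had negative differences and the median was -0.12. The lowest p was that of Clspn, the adaptor of the replication checkpoint, with 21.2, 25.2, 23.3 and 18.2 CPM in Dnmt3a KO libraries, against 30.1, 30.25, 34.7 and 32.8 CPM in WT libraries. All 4 Dnmt3a KO values lay below all 4 WT values, and the log2 difference was -0.54 ± 0.13 (edgeR adjusted p = 0.0660). Of 54 further mitosis genes, 0 were called, 39 had negative differences and the median was -0.12. The lowest p was that of Espl1, separase, the protease that cuts cohesin at anaphase, with 56.4, 44.5, 56.4 and 54.7 CPM in Dnmt3a KO libraries, against 84.35, 64.7, 78.6 and 69.25 CPM in WT libraries. These groups did not overlap either (log2 difference -0.49 ± 0.12, edgeR adjusted p = 0.0727). In these lists 6 and 5 genes had every Dnmt3a KO library below every WT library, as did 4.28% of all tested genes. By unadjusted p under 0.05 the counts were 7 of 45 and 6 of 54, all lower in Dnmt3a KO, where 5.84% of all tested genes were. DESeq2, which called 1.5% of all tested genes lower and 2.9% higher, called Clspn lower in the first list and Espl1 and Ncapd2, a condensin subunit, lower in the second, while limma-voom called 0 in both. With the length and GC trend removed, Clspn and Wdhd1, a fork protein, fell in the first list and Espl1 and Ncapd2 in the second, and without WT library 1 Clspn and Espl1 fell.

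Upstream of replication, 0 of 30 genes of G1 and S entry were called, 26 had negative differences and the median was -0.13. Ccnd1, cyclin D1, a growth-factor-induced partner of Cdk4 and Cdk6, had the lowest p, with 479, 629.8, 540.8 and 571 CPM in Dnmt3a KO libraries, against 718, 747, 654.5 and 783 CPM in WT libraries. No value overlapped between the genotypes (log2 difference -0.39 ± 0.11, edgeR adjusted p = 0.1175). The activator E2F genes E2f1, E2f2 and E2f3 differed by -0.22, -0.32 and -0.071, and Foxm1, which drives mitotic genes, by -0.37. The cyclin E genes Ccne1 and Ccne2 differed by -0.57 and -0.16. The 4 genes with positive differences were E2f5 (0.25), Rb1 (0.21), Ccnd2 (0.12) and E2f6 (0.044). None of them was called. WT library 1 held the highest level of all libraries for E2f1 (52.0 CPM) and for Ccne1 (24.8 CPM). An unadjusted p under 0.05 was reached by 4 of the 30, all lower in Dnmt3a KO, where 5.84% of all tested genes were. DESeq2 and the fit with the trend removed called Ccnd1 lower, limma-voom called 0 genes, and without WT library 1 Ccnd1 and Cdk6, its kinase partner, were called lower.

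Among the CDK inhibitors and p53 target genes, 1 of 19 tested was called, where 1.61% of all tested genes were. Cdkn1c, which encodes the CDK inhibitor p57 and is an imprinted gene, had 68.3, 64.2, 77.25 and 62.2 CPM in Dnmt3a KO libraries, against 30.0, 25.1, 21.2 and 25.3 CPM in WT libraries. Every Dnmt3a KO library held more than every WT library by a wide margin, and Cdkn1c rose 2.67-fold (log2 fold change 1.42 ± 0.13, edgeR adjusted p = 1.93e-04). The log2 fold change lay between 1.34 and 1.56 over 18 other ways of processing, and it was called in each of them. The other inhibitors were not called: Cdkn1a (p21) had 859, 723, 578 and 604 CPM in Dnmt3a KO libraries, against 618, 722, 494 and 516 CPM in WT libraries, with a log2 difference of 0.23, Cdkn1b (p27) differed by -0.058 and Cdkn2c (p18) by -0.54. Cdkn2c was called lower by DESeq2 and without WT library 1, where 1.5% and 1.13% of all tested genes were called lower. An unadjusted p under 0.05 was reached by 3 of the 19, where 12.7% of all tested genes did so. These were Cdkn1c, Cdkn2c and the p53 target gene Gadd45a, which differed by 0.49 and was not called. Of the 19, 13 had positive differences, with a median of 0.10.

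Over the series, library totals were 12614006 to 20801015 reads in Dnmt3a KO and 15505309 to 28502631 reads in WT. Dnmt3a had 29.1 to 37.6 CPM in Dnmt3a KO libraries and 149.8 to 170.2 CPM in WT libraries (log2 fold change -2.22 ± 0.11, edgeR adjusted p = 1.08e-06), so every library matched its label. Macrophage markers summed to 12610 to 16550 CPM in Dnmt3a KO and 11890 to 13480 CPM in WT libraries. Of these, edgeR called 0 of 10, with 3 at an unadjusted p under 0.05, where 12.7% of all tested genes were in either direction. The count called was 0 by limma-voom and 1 by DESeq2 (Lyz2, higher, which also had the lowest edgeR p). Markers of cells that divide in marrow were present at low levels: the stem and progenitor list summed to 112 to 145 CPM in Dnmt3a KO and 102.5 to 123 CPM in WT libraries, with Elane, a promyelocyte protease, called higher (10.8 ± 1.29 CPM in Dnmt3a KO, 5.69 ± 1.42 CPM in WT, edgeR adjusted p = 0.0439, a call lost with the trend removed, without scaling factors and without any single library other than WT library 1). Gata2, a progenitor transcription factor of the same list, had 3.31, 4.19, 3.31 and 6.49 CPM in Dnmt3a KO libraries, against 9.79, 8.13, 9.24 and 7.78 CPM in WT libraries (log2 difference -0.998, edgeR adjusted p = 0.0549). Of the 11 tested, 7 had positive and 4 negative differences. The main edgeR fit called 1 of them, where 1.61% of all tested genes were called. An unadjusted p under 0.05 was reached by 6 of the 11, against the 12.7% of all tested genes. DESeq2 called Elane, Ctsg and Prtn3 higher and Gata2 lower, limma-voom Elane higher and Gata2 lower, the fit with the trend removed Prtn3 higher and Gata2 lower, and that without WT library 1 Elane and Prtn3 higher and Gata2 lower. Neutrophil markers summed to 745 to 918 CPM in Dnmt3a KO and 296 to 449 CPM in WT libraries. Of these, 5 of 10 were called higher (S100a8, S100a9, Lcn2, Ngp and Mmp8), where 1.22% of all tested genes were. An unadjusted p under 0.05 was reached by 7 of the 10. Erythroid and megakaryocyte markers summed to 138 to 202 CPM in Dnmt3a KO and 124.5 to 162 CPM in WT libraries. Of these, 1 of 3 tested was called (Itga2b, higher), where again 1.22% of all tested genes were called higher. Hba-a1 and the beta globin row were at 0 in all libraries. Lymphocyte markers summed to 1.66 to 4.34 CPM in Dnmt3a KO and 1.08 to 2.26 CPM in WT, and stromal and endothelial markers to 11.5 to 18.3 CPM in Dnmt3a KO and 6.10 to 11.1 CPM in WT, with 0 called in either by edgeR, DESeq2 or limma-voom (0 and 1 at an unadjusted p under 0.05). The lowest p in these lists were those of the B-cell receptor gene Cd79a (log2 difference 0.66, edgeR adjusted p = 0.640) and the endothelial adhesion gene Pecam1 (0.77, edgeR adjusted p = 0.196). The part of these cells in the differences of the replication and mitosis genes was not tested.

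In the authors' deposited table of the same comparison, whose fold changes run WT over Dnmt3a KO, all 48 members were listed. The authors' deposited table gave 0 members an adjusted p under 0.05, the smallest being 0.0830, where it gave 3.15% of 16108 genes such a value. Of the 48, 46 were higher in WT by the authors' deposited table.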

How the data were processed

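Poly(A) RNA of 8 BMDM libraries was sequenced, from 10 ng of RNA each with a kit that does not mark strand, per the labels' protocols. The submitters' processing notes name Trimmomatic 0.39, STAR 2.7.0a, featureCounts and build mm10, but no counting settings. The authors deposited read counts per gene symbol and a comparison table with log2 fold changes, p-values and a test score; its direction, WT over Dnmt3a KO, was read from Dnmt3a. From the deposited counts, edgeR 4.0.16 (R 4.3.3; TMM scaling, filterByExpr with a minimum count of 10, quasi-likelihood test, 2 groups of 4, no covariate) gave fold changes, Benjamini-Hochberg adjusted p-values and 95% intervals; a gene was called at an adjusted p under 0.05. Rows whose symbols had turned into dates held 0.215% of counts and were not removed before the fits. Alternatives were DESeq2 1.42.0, limma-voom (limma 3.58.1), other scalings and filters, a replicate block, each library left out, and removal of a loess trend (span 0.3) of each library on log2 length and GC content of the longest GENCODE transcript, known for 97.5% of tested genes. Of the listed genes, 251 matched by symbol and 7 by synonym. Of 48 members, 33 share no exon bases with another gene, 8 share up to 10% and 7 share more; the counting can split these. Values per library are given for called members and the 3 members with the largest difference in each set, and for others chosen after their values were seen. In the other lists the gene with the lowest p or the called genes are named, with others chosen after their values were seen. The members and lists were chosen with earlier results of these data known, though the rule itself uses no measured value. The scripts were tested on simulated counts.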

Additional observations from a re-analysis of the deposited data

Results flagged for a closer look

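In 9 of 126 groups of 4 libraries examined, 1 library stood apart from the other 3 by Dixon's test at the 95% level, and chance alone gives about 1 in 20. WT library 1 stood apart for 4 replication genes. Its Mcm5 level was 171 CPM (110.5 to 118 in the other WT libraries) and its Cdt1 level 71.6 CPM (49.96 to 53.6). Its Prim1 level was 10.6 CPM (17.7 to 19.15) and its Rfc4 level 12.5 CPM (14.1 to 14.4). Dnmt3a KO library 4 stood apart for the polymerase gene Pole, at 16.9 CPM (23.3 to 23.7 in the other Dnmt3a KO libraries), and for the neutrophil collagenase gene Mmp8, at 174 CPM (135.5 to 140.3). Dnmt3a KO library 3 stood apart for Kif23, at 84.7 CPM (75.9 to 76.9). Dnmt3a KO library 2 stood apart for Cenpe, at 117.8 CPM (89.3 to 94.0), and for Espl1, at 44.5 CPM (54.7 to 56.4). The cause of none of these was tested.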

How the results depend on the processing

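Over 18 alternatives the median log2 difference stayed negative, between -0.27 and -0.11 for replication and -0.23 and -0.13 for mitosis genes, with 42 to 46 of 48 members below 0. Removing the length and GC trend called 2 replication and 2 mitosis genes lower, where 147 of 12507 tested genes were. With the replicate block as well, 3 and 3 were called lower (Mcm5 and Kif23 joined), where 203 of 12507 were. Leaving out 1 library called 0 replication and 0 to 1 mitosis genes. Of all genes, 201 were called in the main fit (152 higher, 49 lower) and 399 without the filter. DESeq2 called 551 (363 higher, 188 lower). With the trend removed 458 were called (311 higher, 147 lower), and with trend removal and block 593 (390 higher, 203 lower). With a library left out, 103 (without WT 2) to 484 (without WT 1) were called. The main signs reversed for Bub1 (0.0028 with limma-voom, 0.0042 with the block), Cdt1 (0.087 with the trend removed, 0.087 with block too) and Prim1 (-0.070 and -0.074). Leaving out single libraries gave ranges that crossed 0 for Mcm7 (-0.13 to 0.012), Cdt1 (-0.075 to 0.11), Prim1 (-0.12 to 0.12), Ccnb1 (-0.14 to 0.063), Bub1 (-0.17 to 0.069), Mad2l1 (-0.12 to 0.064) and Ect2 (-0.19 to 0.016). The causes were not tested. For single genes, 1068 of the alternative values kept direction and call, 30 passed the threshold newly, 9 lost it and 26 reversed. Same-numbered deviations correlated at 0.25, 0.28, 0.066 and -0.019. Dnmt3a KO libraries 1 to 3 each correlated best with the WT library of the same number, and Dnmt3a KO 4 with WT 1 (0.099). Such correlations cannot settle whether the replicate numbers pair the libraries. The block alone called 260 genes and 0 members, with medians of -0.18 and -0.15. Depth limits Gins1 most.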
